A study of Mus musculus with 26 samples.

Results

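TGF-beta turns naive CD4+ T cells into induced regulatory T cells (iTreg) in culture, and 2 small molecules, vitamin C and retinoic acid, are each used as a supplement to it. Here iTreg made with TGF-beta plus vitamin C (TGFβ+VitC in the labels, called vitamin C iTreg here) are compared with iTreg made with TGF-beta plus retinoic acid (TGFβ+RA, retinoic acid iTreg), 2 libraries against 2. The 4 libraries were assigned to these groups by their labels, from 12 bulk RNA libraries whose other groups of 2 are TGF-beta alone, TGF-beta with both supplements, Th0 cells (activated without TGF-beta) and naive CD4+ cells. All groups came from Foxp3-eGFP reporter mice on the C57BL/6 background, aged 5 to 6 weeks, with spleen and lymph nodes as the tissue. Both groups compared received TGF-beta, so the contrast is between the supplements and not between iTreg and unpolarised cells. The dose, the number of days in culture and any sort on the reporter before RNA extraction are not given in the sources used here. The labels do not say whether the 2 replicates came from separate mice or cultures, so the p-values measure only the spread between these libraries, which may be technical.

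Vitamin C (ascorbate) helps keep iron in the reduced state that iron and 2-oxoglutarate dependent dioxygenases need, among them the TET enzymes, which oxidise 5-methylcytosine in CpG dinucleotides and so start DNA demethylation. Retinoic acid binds nuclear receptors of the RAR family, which sit on DNA with RXR partners and switch between corepressors and coactivators. In T cells retinoic acid is known for raising Foxp3 induction by TGF-beta and for imprinting receptors that guide cells to the gut, while vitamin C is known for demethylation at an intronic Foxp3 enhancer that stabilises expression.

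The libraries held 10587517 and 10830150 counts with vitamin C and 10583985 and 9986032 with retinoic acid, and between 12651 and 13078 genes had a count. The 12 general T cell markers in the table summed to 5478 and 5502 CPM with vitamin C and 4869 and 5294 CPM with retinoic acid. Of 21761 genes in the table, 11287 passed the filter on low counts. At an adjusted p under 0.05 (edgeR quasi-likelihood test, Benjamini-Hochberg over all tested genes), 1041 genes (9.22%) were higher with vitamin C and 780 (6.91%) were higher with retinoic acid. The vitamin C group held the larger differences, with a median of 1.95-fold against 1.43-fold (n = 2 libraries a group). Among genes that also differed by a log2 fold of 1 or more, 498 (4.41%) were higher with vitamin C and 176 (1.56%) with retinoic acid. The counts depended on single libraries: without vitamin C replicate 1 there were 657 genes higher with vitamin C and 321 higher with retinoic acid, 978 in all against 1821 (16.1%). The retinoic acid side also fell to 498 without vitamin C replicate 2 and to 497 without retinoic acid replicate 2. In bulk RNA fewer cells of a type and less RNA per cell cannot be told apart, for these and all genes below. In 52.9% of tested genes the libraries of the groups did not overlap. In the text below a log2 difference is vitamin C minus retinoic acid with its standard error. That error is the absolute log2 difference divided by the square root of the test's F statistic. For a gene with few counts in a group it can be smaller than counting error alone, and so too small. CPM are counts per 1000000 counts of the library, with its total scaled by the edgeR normalisation factor (TMM), and "passed" refers to that threshold.

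**Figure D1:**
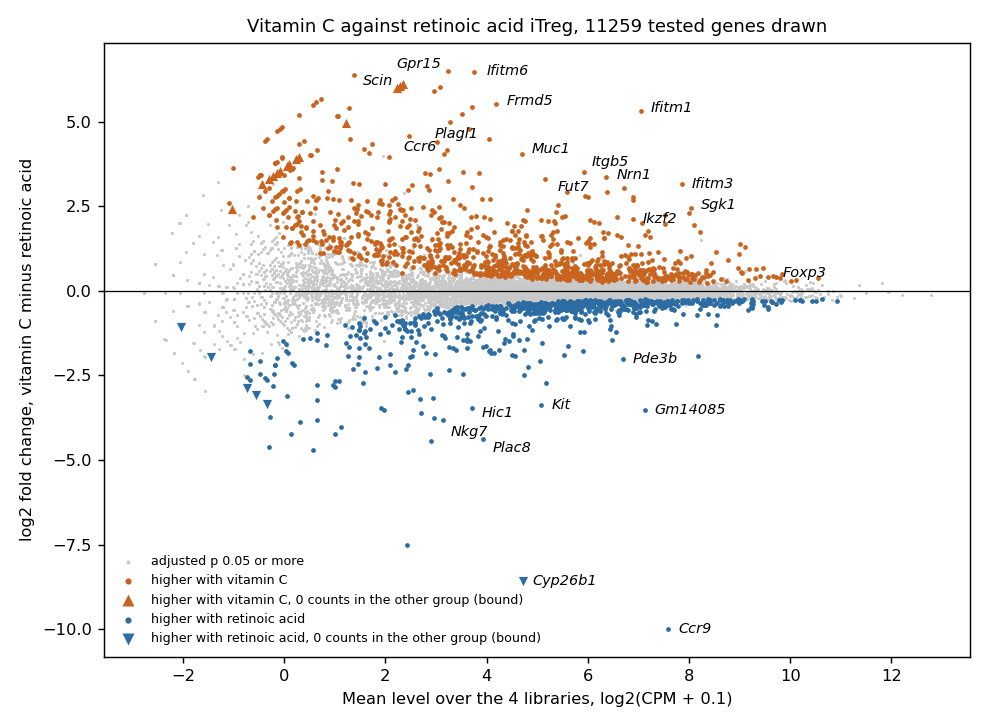
Each point is a tested gene, with the mean level over the 4 libraries as log2(CPM + 0.1) across and the log2 difference, vitamin C minus retinoic acid, up. Coloured points passed the threshold, 1041 above 0 and 780 below, and triangles are bounds for called genes without a count in either library of a group, while uncalled genes of that kind are not drawn. The points far above 0 outnumber those far below, and Ccr9 and Cyp26b1 are the lowest.

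The promoters of genes that carry the contrast are shown first, because vitamin C bears on an enzyme family that acts at CpG dinucleotides. Each sequence is the 250 bases before the gene's start in RefSeq (GRCm38.p6, not the mm9 build of the deposited files), 5′ to 3′ on the gene's strand, with CpG dinucleotides in capitals. Cyp26b1 (chr6:84593811-84594060, minus strand) and Ccr9 (chr9:123766961-123767210, plus strand) had the largest folds toward retinoic acid. Gpr15 (chr16:58718873-58719122, minus strand), Ifitm1 (chr7:140967826-140968075, plus strand) and Plagl1 (chr10:13090582-13090831, plus strand) were among the genes highest with vitamin C.
Cyp26b1: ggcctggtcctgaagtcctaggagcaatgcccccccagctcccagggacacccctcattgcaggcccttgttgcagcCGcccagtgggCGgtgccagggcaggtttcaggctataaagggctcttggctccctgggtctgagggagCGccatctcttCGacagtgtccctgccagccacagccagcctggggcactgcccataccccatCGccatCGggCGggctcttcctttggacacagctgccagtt
Ccr9: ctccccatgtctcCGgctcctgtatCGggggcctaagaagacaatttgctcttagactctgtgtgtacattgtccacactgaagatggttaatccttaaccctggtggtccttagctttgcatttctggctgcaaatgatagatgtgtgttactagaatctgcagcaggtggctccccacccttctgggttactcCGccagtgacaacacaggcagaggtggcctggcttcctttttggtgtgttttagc
Gpr15: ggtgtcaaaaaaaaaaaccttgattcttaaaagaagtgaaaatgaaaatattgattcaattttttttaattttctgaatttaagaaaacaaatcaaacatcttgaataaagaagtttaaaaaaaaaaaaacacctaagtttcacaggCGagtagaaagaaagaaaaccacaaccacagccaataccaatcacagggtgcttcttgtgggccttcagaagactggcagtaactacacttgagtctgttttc
Ifitm1: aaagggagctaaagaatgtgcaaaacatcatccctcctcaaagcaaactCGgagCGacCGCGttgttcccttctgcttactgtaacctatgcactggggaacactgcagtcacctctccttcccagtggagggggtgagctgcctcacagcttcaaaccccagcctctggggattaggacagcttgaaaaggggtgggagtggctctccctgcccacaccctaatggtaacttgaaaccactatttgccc
Plagl1: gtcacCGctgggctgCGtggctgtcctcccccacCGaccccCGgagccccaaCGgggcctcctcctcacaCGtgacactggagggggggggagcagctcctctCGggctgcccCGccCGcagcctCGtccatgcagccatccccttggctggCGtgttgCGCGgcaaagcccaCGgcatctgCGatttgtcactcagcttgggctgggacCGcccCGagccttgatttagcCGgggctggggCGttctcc
Plagl1 held 19 CpG dinucleotides in this window, Cyp26b1 held 7, Ifitm1 held 4, Ccr9 held 3 and Gpr15 held 1. The ratio of observed to expected CpG, which corrects for base composition, was 0.618 for Plagl1, 0.269 for Cyp26b1, 0.225 for Ifitm1, 0.189 for Ccr9 and 0.16 for Gpr15. The sequences shown are a selection, and other genes described below were counted too. Toward retinoic acid, Hic1 held 18 and 22 CpG at its alternative starts (ratios 0.706 and 0.591) and Kit 17 and 18 (0.601 and 0.631). Toward vitamin C, Fut7 held 7 and 1 (0.408 and 0.0506), Ecm1 1 (0.0575) and Car5b 12 (0.493).

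Across all tested genes with a RefSeq promoter (9088 genes, 11583 windows reaching from 250 bases before to 50 bases after the start), 70.8% of windows had an observed to expected CpG ratio of at least 0.6, and the median ratio was 0.765. Among genes that differed by a log2 fold of 1 or more, windows that reached this ratio were a smaller share in both directions. Of the windows of genes higher with vitamin C, 42.5% (215 of 506) reached 0.6, with a median of 0.531. For genes higher with retinoic acid the share was 47.9% (80 of 167) and the median 0.584. With all genes that passed and no minimum fold, the share was 52.2% (551 of 1056 windows, median 0.623) toward vitamin C and 66.8% (540 of 808, median 0.757) toward retinoic acid, the latter close to the share over all tested genes. These shares are a description with no test, and the sets were not matched on expression level. Direct repeats of the nuclear receptor core motif, searched as exact matches on both strands under the names DR1, DR2 and DR5, were found in 28 (0.242%), 6 (0.0518%) and 1 of the 11583 windows. None lay in the 167 windows of genes higher with retinoic acid by that margin, which says only that these letters are not in those windows.

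Several classical targets of retinoic acid, among them genes of its own breakdown, were higher in retinoic acid iTreg. Of 32 retinoic acid target genes listed, 20 were tested, of which 8 were higher with retinoic acid, 2 with vitamin C and 10 did not pass, and the median log2 difference was -0.10 against -0.02 over all tested genes. Cyp26b1, the hydroxylase that degrades retinoic acid, had 59.4 and 45.1 CPM in the retinoic acid libraries and no count in either vitamin C library. Against a floor of 3 counts over the group, its level was at least 382-fold higher with retinoic acid (1091 counts, adjusted p = 1.31e-08), a bound that covers counting error only. Dhrs3, which reduces retinaldehyde and so limits retinoic acid synthesis, stood at 0.652 and 0.54 CPM with vitamin C and at 6.56 and 6.91 CPM with retinoic acid. The groups were far apart, with a log2 difference of -3.47 ± 0.34 (adjusted p = 3.89e-06).

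Hic1, a zinc finger repressor known as a retinoic acid responsive gene in T cells, stood at 2.33 and 1.98 CPM with vitamin C and at 27.5 and 20.1 CPM with retinoic acid (-3.46 ± 0.25, adjusted p = 1.42e-07). Asb2, a substrate receptor of a ubiquitin ligase, was low in every library and higher with retinoic acid (0.186 and 0.18 against 1.69 and 1.68 CPM, -3.12 ± 0.58, adjusted p = 0.00154). Nrip1, a ligand-dependent corepressor of nuclear receptors, was higher with retinoic acid by a smaller margin (-1.05 ± 0.16, adjusted p = 0.000399). Ppif, the mitochondrial cyclophilin, passed toward retinoic acid (-0.36 ± 0.11), but not without vitamin C replicate 1, retinoic acid replicate 1 or retinoic acid replicate 2, nor by DESeq2 or in either smaller fit. The 2 members of the list that went the other way were Gpr15 and Rarg.

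Rarg encodes a retinoic acid receptor, and its libraries did not overlap, at 76.3 and 69.8 CPM with vitamin C and 28 and 27.4 CPM with retinoic acid. Its log2 difference was 1.40 ± 0.11, or 2.64-fold higher with vitamin C (adjusted p = 2.77e-07). TGF-beta alone gave 56.5 and 54.4 CPM, between the groups. Of 13 tested receptors and corepressors of 16 listed, Rarg, Rara (0.36 ± 0.10) and Rxra (0.51 ± 0.14) were higher with vitamin C and Nrip1 was higher with retinoic acid. The vitamin C count was 1 without vitamin C replicate 1 or without retinoic acid replicate 2, and 6 without retinoic acid replicate 1. Rarb was too low to be tested, and Cyp26a1, another hydroxylase of the same family, had no count in any of the 4 libraries.

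In the list of retinoid uptake and metabolism, 9 of 25 members were tested. Cyp26b1 and Dhrs3 were higher with retinoic acid, Retsat and Rdh10 were higher with vitamin C and 5 did not pass. Retsat, a retinol saturase, had 17.4 and 13.8 CPM with vitamin C and 8.91 and 8.69 CPM with retinoic acid (0.82 ± 0.17, adjusted p = 0.00272). Rdh10, which oxidises retinol to retinaldehyde, differed by 0.87 ± 0.20 (adjusted p = 0.00643) and did not pass without vitamin C replicate 2.

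Homing receptors divided between the supplements. Ccr9, the receptor for the small intestinal chemokine CCL25, stood at 399 and 366 CPM in the retinoic acid libraries and at 0.465 and 0.27 CPM in the vitamin C libraries (8 counts in all). This was the gene with the smallest p of the comparison, 1012-fold higher with retinoic acid (-9.98 ± 0.21, adjusted p = 1.22e-13). With 8 counts on the vitamin C side, the printed error is below counting error alone, so it is too small. Per length, its mean was 39.8 FPKM with retinoic acid, below the 176 FPKM of Foxp3 in the same libraries. The chains of the gut integrin alpha4 beta7 showed no such difference: Itga4 had 451 and 334 CPM with vitamin C and 493 and 338 CPM with retinoic acid (-0.08 ± 0.25, adjusted p = 0.872), and Itgb7 differed by 0.13 ± 0.08 (adjusted p = 0.308). Neither passed, which does not show that their levels are equal.

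Itgae, the alpha chain that pairs with Itgb7 to bind E-cadherin on epithelium, was higher with retinoic acid. Its libraries read 2.14 and 1.44 CPM with vitamin C and 7.88 and 5.14 CPM with retinoic acid, without overlap (-1.86 ± 0.34, 3.63-fold, adjusted p = 0.00144). Gpr15, a receptor known for homing to the large intestine, went the opposite way, with 22.3 and 14.8 CPM with vitamin C and 0.188 and 0.198 CPM with retinoic acid (4 counts in all). That is 90.8-fold higher with vitamin C, with a wide error on the log2 scale (6.50 ± 0.57, adjusted p = 3.96e-06). With 4 counts on the retinoic acid side, this error too is below counting error alone. Ccr6, the CCL20 receptor of Th17 cells and mucosal Treg, was likewise higher with vitamin C, at 19.8 and 14.9 against 1.31 and 0.593 CPM (4.16 ± 0.32, adjusted p = 5.28e-07). Of the 16 tested members of the gut and mucosal homing list (20 listed), 7 were higher with vitamin C, 3 with retinoic acid and 6 did not pass, with a median of 0.20. Without vitamin C replicate 1 the vitamin C count was 4.

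**Figure D2:**
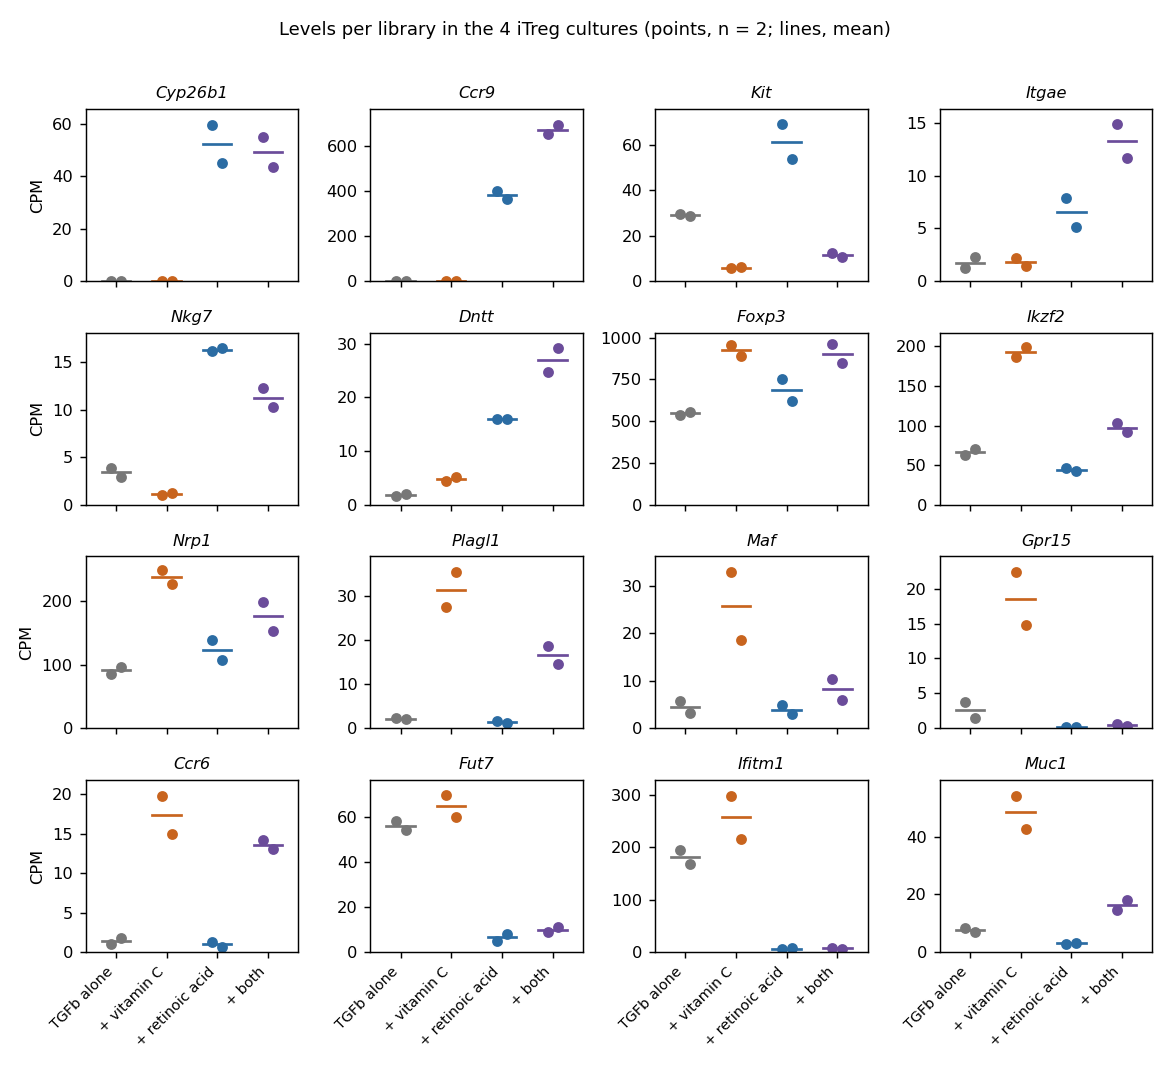
Points are the CPM of single libraries (linear axes from 0) and lines are the means of the 2 libraries of a group, for genes that the text describes. Ccr9 and Cyp26b1 are high where retinoic acid was present, and Gpr15 and Fut7 are low there, also when vitamin C was added.

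Fut7, the fucosyltransferase that completes the sialyl Lewis x structure of selectin ligands, had 69.5 and 59.9 CPM with vitamin C and 5.06 and 8 CPM with retinoic acid (3.31 ± 0.18, 9.93-fold, adjusted p = 1.1e-08). Fut4, a related enzyme chosen after its values were seen, had 89.7 and 64.8 against 17.5 and 16.1 CPM (4.59-fold). Ccr7, a receptor for entry into lymph nodes, was higher with retinoic acid at 353 and 359 against 219 and 216 CPM (-0.71 ± 0.08, adjusted p = 8.89e-06). Cxcr5, the receptor for B cell follicles, was also higher with retinoic acid (25.3 and 20.4 against 6.79 and 7.65 CPM, -1.66 ± 0.21, adjusted p = 5.52e-05).

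Integrin chains other than Itgae moved toward vitamin C where they passed. Of 16 tested chains, 5 were higher with vitamin C (Itgb5, Itgam, Itgb1, Itgav and Itgal), Itgae was higher with retinoic acid and 10 did not pass (median 0.19). Itgb5, which pairs with the alpha v chain Itgav to bind vitronectin, had 119 and 104 CPM with vitamin C and 9.47 and 10.3 CPM with retinoic acid, an 11.3-fold difference (3.50 ± 0.14, adjusted p = 3.27e-10). Itgb1, the common beta chain of the fibronectin and collagen receptors, had 815 and 740.2 CPM with vitamin C and 329 and 311 CPM with retinoic acid (1.28 ± 0.09, adjusted p = 1.19e-07). Chemokine receptors were split, with 5 of 17 tested members higher with vitamin C (among them Ccr4 and Ccr8, 1.03 ± 0.14 and 2.13 ± 0.25) and 4 higher with retinoic acid (Ccr9, Cxcr6, Cxcr5 and Ccr7). Of these, Cxcr6 (-2.80 ± 0.87) did not pass without vitamin C replicate 2 or retinoic acid replicate 1.

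The regulatory T cell programme was higher with vitamin C. Foxp3, the lineage factor, stood at 959 and 893 CPM in the vitamin C libraries and at 749.9 and 620.3 CPM in the retinoic acid libraries. Both vitamin C libraries were above both retinoic acid libraries, and the difference was modest at 1.35-fold (0.43 ± 0.09, adjusted p = 0.00393). The high affinity IL-2 receptor chain Il2ra (0.22 ± 0.08, adjusted p = 0.087) and Ctla4 (413 and 460.1 against 407 and 449 CPM, 0.03 ± 0.15, adjusted p = 0.928) did not pass. Without retinoic acid replicate 1, Il2ra passed toward vitamin C (0.30, adjusted p = 0.0426).

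Of 39 tested core Treg genes (40 listed), 25 were higher with vitamin C, 3 were higher with retinoic acid and 11 did not pass, and the median log2 difference was 0.51. Ikzf2 (Helios), a zinc finger factor known from thymus-derived Treg, had 187 and 199 CPM with vitamin C and 46.1 and 42.3 CPM with retinoic acid (4.36-fold, 2.12 ± 0.14, adjusted p = 5.24e-08). Plagl1, an imprinted zinc finger gene, had the largest difference of the list, with 27.4 and 35.3 CPM against 1.59 and 1.19 CPM (22.3-fold, 4.48 ± 0.24, adjusted p = 1.1e-08). Nrp1 (neuropilin-1), another marker of thymus-derived Treg, was 1.94-fold higher with vitamin C at 249 and 228 against 139 and 107 CPM (adjusted p = 0.000123). In all 3 the groups were separate.

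The next largest members were Lad1 (ladinin 1, an anchoring filament protein), at 14.4 and 19.5 CPM with vitamin C and 1.97 and 1.58 CPM with retinoic acid (3.24 ± 0.32), and Cd83, a surface protein of activated lymphocytes, at 8.94 and 11.3 against 1.13 and 1.19 CPM (3.12 ± 0.29). Tnfrsf4 (OX40, 1.16 ± 0.13), Entpd1 (CD39, which degrades extracellular ATP, 1.00 ± 0.13), the actin capping protein Capg (1.08 ± 0.11) and the phosphatase Dusp4 (2.32 ± 0.23) were also higher with vitamin C. The family member Ikzf4 (Eos) differed by 0.65 ± 0.18 (adjusted p = 0.0255) and did not pass without vitamin C replicate 1, vitamin C replicate 2 or retinoic acid replicate 2. Tnfrsf9 (4-1BB) had a large difference with a large error (2.78 ± 0.58, adjusted p = 0.0187) and lost its call when any 1 of the 4 libraries was left out.

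The 3 core genes higher with retinoic acid were Itgae, Pde3b and Satb1. Pde3b, a cyclic nucleotide phosphodiesterase, and Satb1, a genome organiser, are known as genes that Foxp3 holds down. Pde3b had 50.2 and 31.7 CPM with vitamin C and 185 and 146 CPM with retinoic acid (-2.01 ± 0.28, adjusted p = 0.0014). Satb1 had 303 and 274 against 500.5 and 436 CPM (-0.70 ± 0.09, adjusted p = 7.56e-05). Ikzf3 (Aiolos) was also higher with retinoic acid (217 and 158 against 109.8 and 98.5 CPM, -0.85 ± 0.13, adjusted p = 0.000437).

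**Figure D3:**
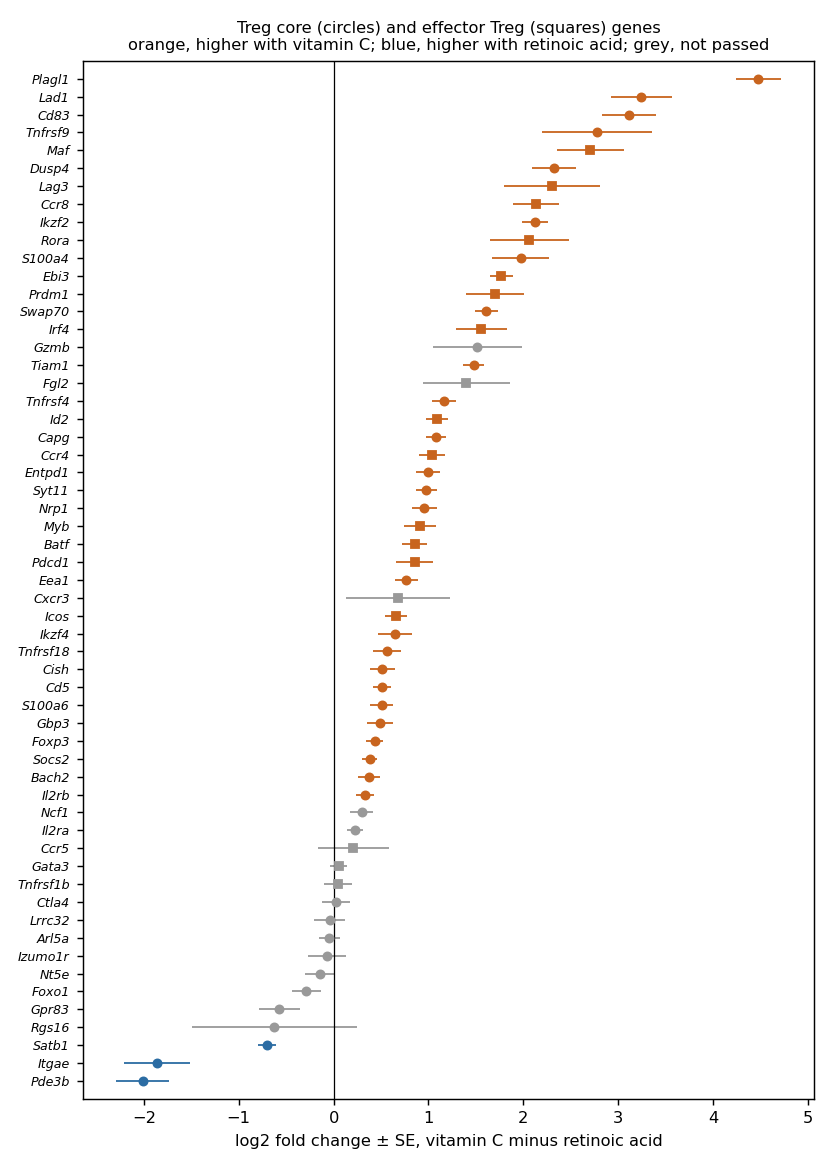
Log2 differences, vitamin C minus retinoic acid, with bars of 1 standard error, for the tested members of the core and effector Treg lists. Circles are core genes, squares are effector genes and coloured points passed the threshold. Of the coloured points nearly all lie above 0, with Pde3b, Itgae and Satb1 as the 3 below it.

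Genes of effector Treg, the activated tissue-seeking state, were higher with vitamin C in 13 of 18 tested members (25 listed), none was higher with retinoic acid (edgeR, 0 also at an unadjusted p under 0.05 and 0 by DESeq2 and limma), and the median was 1.06. Maf, a factor of effector and gut Treg, had 33 and 18.6 CPM with vitamin C and 4.88 and 2.96 CPM with retinoic acid (2.71 ± 0.35, adjusted p = 0.000178). Prdm1 (Blimp-1), which drives effector differentiation, had 16.8 and 12 against 4.78 and 4.05 CPM (3.25-fold, adjusted p = 0.00152). Ebi3, a subunit of IL-27 and IL-35, was higher with vitamin C at 68.4 and 61.5 against 19.9 and 18.3 CPM (1.77 ± 0.12, adjusted p = 9.54e-08). Rora (2.06 ± 0.42), Ccr8 (2.13 ± 0.25), Batf (0.85 ± 0.13) and Icos (0.66 ± 0.11) passed in the same direction. Irf4 (1.56 ± 0.27) did not pass without retinoic acid replicate 2, and Il10 had no count in any of the 4 libraries.

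Surface ligands and receptors of costimulation followed the same direction for the most part. In the checkpoint and costimulation list, 14 of 24 tested members (27 listed) were higher with vitamin C, 3 were higher with retinoic acid and 7 did not pass (median 0.50). The retinoic acid count was 0 without vitamin C replicate 1 and 1 without vitamin C replicate 2, without retinoic acid replicate 1 or with only the 4 libraries compared. Cd80, a ligand of CD28 and CTLA-4 usually studied on antigen-presenting cells, had 73.6 and 70.4 CPM with vitamin C and 14.7 and 10.3 CPM with retinoic acid (5.75-fold, 2.52 ± 0.15, adjusted p = 3.16e-08). Its partner Cd86 had 15.5 and 9.82 against 1.69 and 1.48 CPM (2.99 ± 0.31, adjusted p = 6.72e-06).

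The adjacent genes for the PD-1 ligands were both higher with vitamin C, Cd274 (PD-L1) by 1.05 ± 0.18 and Pdcd1lg2 (PD-L2) by 1.81 ± 0.18. Their receptor Pdcd1 (PD-1) had 12.8 and 13.9 CPM with vitamin C and 7.22 and 7.51 CPM with retinoic acid (0.85 ± 0.19, adjusted p = 0.00661). Among the suppressor molecules, 6 of 15 tested members (22 listed) were higher with vitamin C and Ada (adenosine deaminase, -1.18 ± 0.21) was higher with retinoic acid. Nrn1 (neuritin), at 166 and 135 against 14.5 and 14.6 CPM (3.37 ± 0.35), and the lectin Lgals3, at 33.2 and 19.4 against 2.53 and 2.17 CPM (3.47 ± 0.44), were the largest of these.

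Genes of antigen presentation, which were chosen after their values were seen, went both ways. Cd74, the invariant chain of MHC class II, had 17.3 and 16.2 CPM with vitamin C and 1.13 and 0.889 CPM with retinoic acid (4.04 ± 0.37, adjusted p = 1.85e-06). The class II beta chain H2-Ab1 differed by 2.15 ± 0.33 and the lysosomal protease Ctss (cathepsin S), at 214 and 212 against 67.3 and 67.6 CPM, by 1.66 ± 0.10, both higher with vitamin C. The class II peptide loading gene H2-DMa (-0.88 ± 0.11, adjusted p = 6.56e-05) and the class I gene H2-Q2 (-1.92 ± 0.39, adjusted p = 0.00303) were higher with retinoic acid, the latter one of a family of similar copies between which reads may be split. Cd74, H2-Ab1, Ctss, Cd80 and Cd86 are also expressed by antigen-presenting cells, so the markers of such cells were summed. The 23 myeloid and dendritic markers summed to 21.7 and 16.8 CPM with vitamin C and to 4.59 and 3.75 CPM with retinoic acid. Most of the sum in each library came from a single marker, Adgre1. Of the 5 tested, Itgam (3.18 ± 0.41) and Adgre1 (2.38 ± 0.29) were higher with vitamin C, while the median over the 5 was -1.19. The defining genes Csf1r, Cd14, Lyz1, Itgax and C1qa were among 13 of the 23 with no count in any of the 4 libraries. The 16 B cell markers in the table summed to 25.5 and 24.5 CPM with vitamin C and to 23.6 and 26.5 CPM with retinoic acid, with Ms4a1 and Pax5 at 0. The part of other cells in these results was not tested further.

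Receptors and factors of the helper lineages were higher with vitamin C more often than with retinoic acid. In the Th17 list 8 of 12 tested genes (21 listed) were higher with vitamin C, none with retinoic acid (edgeR, 1 at an unadjusted p under 0.05, 0 by DESeq2 and limma), and the median was 0.98. They were Ccr6, Maf, Rora, Podxl, Irf4, Il6ra, Batf and Stat3, of which Maf, Rora, Irf4 and Batf also stand in the effector Treg list. Stat3 (0.25 ± 0.08) lost its call without vitamin C replicate 1 (adjusted p = 0.107) or replicate 2 (0.179), without retinoic acid replicate 2 (0.225), with only the 4 libraries compared (0.164) or the 8 iTreg libraries (0.0652), and with no count filter (0.0679). In the Th1 list 7 of 19 tested genes were higher with vitamin C and 3 with retinoic acid (1 without vitamin C replicate 1), led by the receptors Il18r1 (2.08 ± 0.15) and Il12rb1 (1.44 ± 0.16). Tbx21, the Th1 factor, was too low to be tested, and Gata3, the Th2 factor, differed by 0.05 ± 0.09 (adjusted p = 0.757).

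Th2-linked genes passed in 4 of 7 tested members toward vitamin C (Maf, Ccr8, Nfil3 and Ccr4), and Il4ra passed toward retinoic acid (-0.29 ± 0.07) but not without vitamin C replicate 1 or 2 or with only the 4 libraries compared. Of 27 tested cytokine receptor chains, 10 were higher with vitamin C and 5 with retinoic acid. The retinoic acid count was 2 without vitamin C replicate 1 or with only the 4 libraries compared, and 3 without vitamin C replicate 2. Il21r, the IL-21 receptor, was the best supported of those, at 105 and 114 CPM with vitamin C and 213 and 219.7 CPM with retinoic acid (-0.98 ± 0.08, adjusted p = 5.69e-07). Il1rl2, the IL-36 receptor gene next to Il18r1 in the genome among the tested genes, was low and higher with vitamin C (3.27 ± 0.54).

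Among the largest changes toward vitamin C was a run of Ifitm genes, membrane proteins known for restricting virus entry. Ifitm2, Ifitm1, Ifitm3 and Ifitm6 lie next to each other on chromosome 7 among the tested genes (order from GRCm38.p6), and all 4 were higher with vitamin C. Ifitm1 had 298 and 216 CPM with vitamin C and 5.44 and 7.61 CPM with retinoic acid (39.5-fold, 5.30 ± 0.21, adjusted p = 1.2e-08). Ifitm3 had 443 and 389 against 41 and 51.6 CPM (3.17 ± 0.17), and Ifitm6 28.6 and 24 against 0.188 and 0.395 CPM (6.45 ± 0.34). Ifitm2, chosen after its values were seen, differed by 1.95 ± 0.11. These paralogs are similar in sequence, so reads could be shared among them where the counting allowed it. With TGF-beta alone Ifitm1 stood at 194 and 168 CPM, near the vitamin C level, and with both supplements at 8.37 and 5.73 CPM, near the retinoic acid level.

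The Ifitm genes are interferon-inducible, and the wider interferon list was measured beside them. Of 50 interferon response genes tested, 5 were higher with vitamin C, Slfn1 was higher with retinoic acid (-0.64 ± 0.12, adjusted p = 0.00162) and 44 did not pass. The share called was 12%, against 16.1% of all tested genes, and the list does not hold the Ifitm genes described above. The median was 0.40, above the -0.02 of all tested genes, and the calls depended on the fit. With only the 4 libraries compared, 17 passed toward vitamin C, and with the 8 iTreg libraries 19. Without vitamin C replicate 2 the count was 1, and without vitamin C replicate 1 or retinoic acid replicate 1 it was 3.

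Among the other genes with the largest folds toward vitamin C were surface mucins. The mucins Muc1 and Muc13 had 54.4 and 42.9 against 2.72 and 3.16 CPM (4.04 ± 0.20) and 26 and 18.4 against 0.563 and 0.593 CPM (5.23 ± 0.32). Muc1 stands in a run with Thbs3 and Trim46 on chromosome 3 in which all 3 were higher with vitamin C. Frmd5 (5.51 ± 0.27), the adaptor Rassf4 (5.42 ± 0.36) and the endolysosomal nuclease Pld4 (4.77 ± 0.32) were at 1.19 CPM or lower with retinoic acid and between 20.2 and 37.2 CPM with vitamin C.

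Genes with no count in either retinoic acid library, chosen after their values were seen, included Scin (an actin severing protein, 9.31 and 10.6 CPM with vitamin C), S1pr3 (a sphingosine phosphate receptor, 10.2 and 9.01 CPM), Stac2 (11.2 and 7.11 CPM) and the endocytic adaptor Dab2 (3.63 and 5.31 CPM). Against 3 counts over the group they were at least 69.1-fold, 66.6-fold, 63.1-fold and 31.1-fold higher with vitamin C. Ccl5, a chemokine of activated T cells, was at least 11.1-fold higher (35 counts against 0).

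The smallest p-values toward vitamin C included those of Ecm1, Car5b and Gpld1. Ecm1, a secreted matrix protein, had 208 and 207 CPM with vitamin C and 30.1 and 30.7 CPM with retinoic acid (2.77 ± 0.11, adjusted p = 3.27e-10). Car5b, a mitochondrial carbonic anhydrase, had 188 and 186 against 20.6 and 24.8 CPM (3.04 ± 0.12, adjusted p = 3.27e-10). Gpld1, which releases proteins from their membrane anchors, had 220.2 and 193 against 35 and 28.7 CPM (2.70 ± 0.12, adjusted p = 1.44e-09). The kinase Sgk1, chosen after its values were seen, was 5.44-fold higher with vitamin C at 429 and 463 against 77.9 and 85.9 CPM. Hbb-b1, a beta globin, differed by 3.52 ± 0.44, and its highest level was with TGF-beta alone (44.9 and 36.2 CPM).

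Toward retinoic acid, apart from the retinoid and homing genes, the receptor tyrosine kinase Kit was among the largest differences. It had 69 and 53.8 CPM with retinoic acid and 5.77 and 6.03 CPM with vitamin C (10.4-fold, -3.38 ± 0.19, adjusted p = 1.37e-08). Genes of cytotoxic granules went both ways. Of 18 tested genes of the cytotoxic list (24 listed), 5 were higher with retinoic acid (3 without vitamin C replicate 1 or 2, or with only the 4 libraries compared) and 4 were higher with vitamin C. Nkg7, a granule membrane protein, had 16.2 and 16.5 against 1.02 and 1.26 CPM (-3.82 ± 0.26, adjusted p = 8.23e-08), and the protease Ctsw (cathepsin W) and the inhibitor Cst7 (cystatin F) were higher with retinoic acid too, by -1.74 ± 0.14 and -1.88 ± 0.16. The granzyme Gzmc was higher with vitamin C (1.14 ± 0.15), and the whole list summed to 1605 and 1502 CPM with vitamin C against 1208 and 1329 CPM with retinoic acid. The granzyme Gzmb had 478 and 414 CPM with vitamin C and 112 and 200.1 CPM with retinoic acid and did not pass (1.52 ± 0.47, adjusted p = 0.0776). Of 8 tested NK and innate lymphoid markers (16 listed), Kit and Nkg7 were higher with retinoic acid, Id2 was higher with vitamin C (1.09 ± 0.12) and 5 did not pass. The 16 summed to 367.6 and 324.7 CPM with vitamin C and to 329.3 and 303.2 CPM with retinoic acid, so the groups overlapped, and 7 of them, among them Ncr1, Klrb1c and Klrk1, had no count in any of the 4 libraries.

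Several genes higher with retinoic acid were neighbours in the genome among the tested genes. Over both directions, 105 of the 671 placed genes with a log2 fold of 1 or more stood in 49 runs of such neighbours. How many runs gene order alone would give was not computed, and the runs named here are a selection. Lztfl1, a regulator of ciliary traffic, lies next to Ccr9 among the tested genes and had 75.8 and 68.7 CPM with retinoic acid and 19 and 19.7 CPM with vitamin C (-1.90 ± 0.11, adjusted p = 1.87e-08). The adjacent phosphodiesterase genes Enpp4 (61.9 and 62.7 against 7.26 and 11.5 CPM, -2.72 ± 0.20) and Enpp5 (-3.61 ± 0.24) were both higher with retinoic acid. Slc28a2, Bambi-ps1 and Gm14085 formed a run of 3, of which Gm14085 had 299 and 214 against 19.5 and 25.4 CPM (-3.51 ± 0.23). Slc28a2 and Gm14085 are closely related transporter copies, so the split of reads between them is uncertain. In the Hoxb cluster, Hoxb3 had 45 counts with retinoic acid and 3 with vitamin C, a ratio of 15.8 (exact 95% interval 5.06 to 79.3, counting error only), and was chosen after its values were seen. The amino acid transporter Slc43a1, chosen likewise, had 219 counts against 1, a ratio of 230.2 (40.9 to 9132).

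A gene of early lymphocyte development was on the retinoic acid side. Dntt, the template-independent polymerase of V(D)J joining, had 16 and 16 CPM with retinoic acid and 4.37 and 5.22 CPM with vitamin C (-1.73 ± 0.17, adjusted p = 3.7e-06). Against TGF-beta alone Dntt was higher with either supplement. The log2 differences were 1.44 with vitamin C (edgeR adjusted p = 0.00118) and 3.17 with retinoic acid (edgeR adjusted p = 9.58e-08). Of 6 tested immature thymocyte markers (10 listed), Dntt and Cd24a (-0.77 ± 0.21) were higher with retinoic acid, Cd8b1 was higher with vitamin C and 3 did not pass (median -0.57). Cd24a lost its call without vitamin C replicate 1, without either retinoic acid library, with no count filter, by DESeq2 and by limma. The 10 summed to 334.7 and 319.9 CPM with retinoic acid and to 251.4 and 251.1 CPM with vitamin C, with Rag1, Rag2 and Bcl11a at no count in the 4 libraries, and their part in the Dntt difference was not tested. The imprinted RNA H19 had 8.34 and 6.72 against 1.21 and 1.62 CPM (-2.40 ± 0.26, adjusted p = 2.31e-05), and with both supplements it reached 77.8 and 70.2 CPM, above every library with a single supplement. Of 26 naive and memory genes, 8 were higher with retinoic acid and 6 with vitamin C (5 and 3 without vitamin C replicate 1). Pdlim4 (-1.62 ± 0.14), Ly6c1 (-1.27 ± 0.17) and the actinin gene Actn1 (-0.99 ± 0.14) led the first, and Dapl1 and Il6ra led the second.

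Metabolic gene groups divided too. Genes of cholesterol and fatty acid synthesis were higher with vitamin C in 16 of 34 tested members, none was higher with retinoic acid (edgeR, 0 also at an unadjusted p under 0.05 and 0 by DESeq2 and limma), and the median was 0.38. The desaturases Scd1 (126 and 89.9 against 15.3 and 15.9 CPM, 2.79 ± 0.36, adjusted p = 0.0012) and Scd2 (1.39 ± 0.21, adjusted p = 0.00146) had the best supported large differences, and sterol enzymes such as Hsd17b7 (0.89 ± 0.15) and Hmgcs1 (0.56 ± 0.14) followed. Without vitamin C replicate 1 the count was 5, without retinoic acid replicate 1 it was 10, and Hmgcs1 passed in neither. In the TGF-beta libraries without supplement Scd1 was at 195 and 109.5 CPM. Hmgcs1 was at 402 and 306 CPM there, above both vitamin C libraries (231 and 202 CPM).

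Genes of Myc and ribosome biogenesis leaned to retinoic acid. Of 30 tested members 18 were higher with retinoic acid, 1 was higher with vitamin C and 11 did not pass (median -0.37). That 1 is Mxd1, a repressor that competes with Myc for its partner, at 140.5 and 149 against 44.7 and 47.4 CPM (1.65 ± 0.11, adjusted p = 8.23e-08). Most of the 18 had small differences: Rrp12, a ribosome export factor, had 65.4 and 51.1 against 32 and 33 CPM (-0.84 ± 0.15), Srm, the spermidine synthase, differed by -0.71 ± 0.11 and Wdr12 by -0.56 ± 0.09. The retinoic acid count was 3 without vitamin C replicate 1, 7 without retinoic acid replicate 2 and 8 with only the 4 libraries compared. Myc itself did not pass (-0.18 ± 0.08, adjusted p = 0.16). The 30 genes summed to 5315 and 5597 CPM with retinoic acid and to 4417 and 4868 CPM with vitamin C. With TGF-beta alone the sum was 5333 and 5637 CPM, near the retinoic acid level, and with both supplements 4602 and 4771 CPM. Of 46 cell cycle genes 3 passed, toward vitamin C (1 without vitamin C replicate 1 or by limma on log2(FPKM + 0.1)), and the cell cycle inhibitor Cdkn1a (p21) was higher with vitamin C at 37.3 and 30.0 against 15.7 and 12.4 CPM (1.26 ± 0.16).

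In the TGF-beta pathway, which both cultures were given a ligand for, 7 of 25 tested genes were higher with vitamin C and 2 with retinoic acid (4 without retinoic acid replicate 2). The target genes Id1 (20.4 and 17.8 against 4.97 and 7.7 CPM, 1.59 ± 0.20), Bhlhe40 (1.56 ± 0.16) and Id2 (1.09 ± 0.12) were higher with vitamin C. The receptor Tgfbr1 was slightly higher with retinoic acid (-0.44 ± 0.08), as was the secreted protease inhibitor Serpine2 at low levels (-2.31 ± 0.42).

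Transcripts of the TET enzymes, which vitamin C bears on, did not pass in this comparison. Tet1 (6.61 and 4.5 against 4.13 and 3.46 CPM, 0.54 ± 0.25, adjusted p = 0.159), Tet2 (26.3 and 20.4 against 21.2 and 16 CPM, 0.33 ± 0.16, adjusted p = 0.192) and Tet3 (115 and 112 against 145 and 105 CPM, -0.14 ± 0.15, adjusted p = 0.592) missed the threshold. The libraries of Tet2 and Tet3 overlapped between the groups, and those of Tet1 did not. Per length, Tet3 had 10.5 FPKM with vitamin C, above Tet2 (2.21) and Tet1 (0.394). The methyltransferases Dnmt1 (0.04 ± 0.11), Dnmt3a (0.26 ± 0.10) and Dnmt3b (-0.35 ± 0.15) did not pass either, nor did the vitamin C transporter Slc23a2 (0.15 ± 0.11, adjusted p = 0.404). Without retinoic acid replicate 1, Slc23a2 passed toward vitamin C (0.36, adjusted p = 0.0462).

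Of 27 tested genes of the DNA methylation machinery, 4 were higher with vitamin C (2 without vitamin C replicate 2), none with retinoic acid (edgeR, 2 at an unadjusted p under 0.05, 0 by DESeq2 and limma), and the median was 0.04. The share called was 14.8%, near the 16.1% of all tested genes. Of the 4 called, Zbtb38 (0.72 ± 0.12) and Mbd1 (0.37 ± 0.08) bind methylated DNA. Of 33 other iron and 2-oxoglutarate dependent dioxygenases, which include collagen and HIF prolyl hydroxylases and histone demethylases, none passed (median 0.08). At an unadjusted p under 0.05 edgeR gave 3 toward vitamin C and 2 toward retinoic acid, and DESeq2 and limma called 0 at the adjusted threshold. With only the 4 libraries compared or with the 8 iTreg libraries 2 passed toward vitamin C, and without retinoic acid replicate 1, without replicate 2 or with no count filter there was 1 toward retinoic acid. Enzyme activity and DNA modification were not measured in these libraries.

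**Figure D4:**
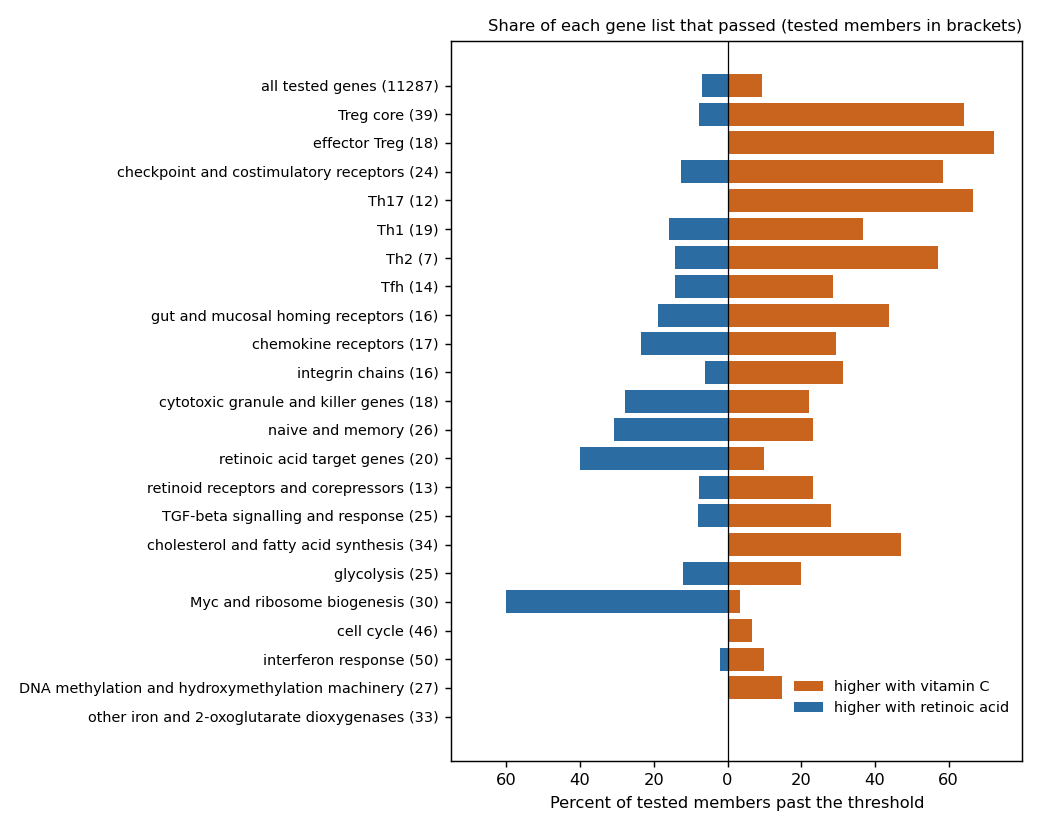
Bars give the percent of tested members of each list (number in brackets) that passed, to the right those higher with vitamin C and to the left those higher with retinoic acid. All tested genes (9.22% and 6.91%) are the top bar. Effector Treg, Th17 and core Treg lists reach furthest right, Myc and ribosome biogenesis furthest left, and the dioxygenase list is empty.

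The TGF-beta cultures without supplement and with both supplements place these differences. Both contrasts with TGF-beta alone use the same 2 TGF-beta libraries, so values are given side by side. Against TGF-beta alone 16.8% of tested genes passed for vitamin C and 16.5% for retinoic acid. Kit moved in opposite directions, by -2.29 ± 0.20 with vitamin C (adjusted p = 3.39e-06) and by 1.08 ± 0.16 with retinoic acid (adjusted p = 0.000257), from 29.4 and 28.6 CPM. Muc1 did the reverse, by 2.65 ± 0.17 (adjusted p = 1.2e-07) and -1.39 ± 0.23 (adjusted p = 0.000868), from 8.47 and 6.93 CPM. Plagl1 rose by 3.84 ± 0.22 with vitamin C (adjusted p = 5.64e-08), and with retinoic acid the value was -0.64 ± 0.35 (adjusted p = 0.231). For Fut7 the change lay with retinoic acid, -3.10 ± 0.18 (adjusted p = 2.74e-08), with 0.21 ± 0.14 for vitamin C (adjusted p = 0.331).

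Foxp3 was at 539 and 558 CPM with TGF-beta alone, below all 4 libraries with a supplement. It differed from that by 0.75 ± 0.09 with vitamin C (adjusted p = 9.73e-05) and by 0.32 ± 0.09 with retinoic acid (adjusted p = 0.0262). The second call was lost without retinoic acid replicate 1 (adjusted p = 0.282), without TGF-beta replicate 1 (0.168) or replicate 2 (0.0924), and with only the 8 iTreg libraries (0.063). Ikzf2 went from 62.7 and 69.9 CPM up by 1.54 ± 0.13 with vitamin C (adjusted p = 3.28e-06) and down by a log2 difference of -0.58 ± 0.14 with retinoic acid (adjusted p = 0.0092), the latter lost without TGF-beta replicate 2 (0.0628) and by limma on log2(FPKM + 0.1) (0.107).

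Each gene that passed with a log2 fold of 1 or more was then placed on the scale from its retinoic acid mean (position 0) to its vitamin C mean (position 1), on log2(CPM + 0.5). For the 498 genes higher with vitamin C, TGF-beta alone was nearer to vitamin C in 275 (55.2%) and nearer to retinoic acid in the rest. For the 176 genes higher with retinoic acid, TGF-beta alone was nearer to vitamin C in 119 (67.6%), with a median position of 0.711. When both supplements were given, the levels were nearer to retinoic acid for most genes of either kind, in 322 of the 498 (median position 0.325) and in 115 of the 176 (median position 0.205). These shares describe genes chosen on the vitamin C to retinoic acid difference and carry no test.

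**Figure D5:**
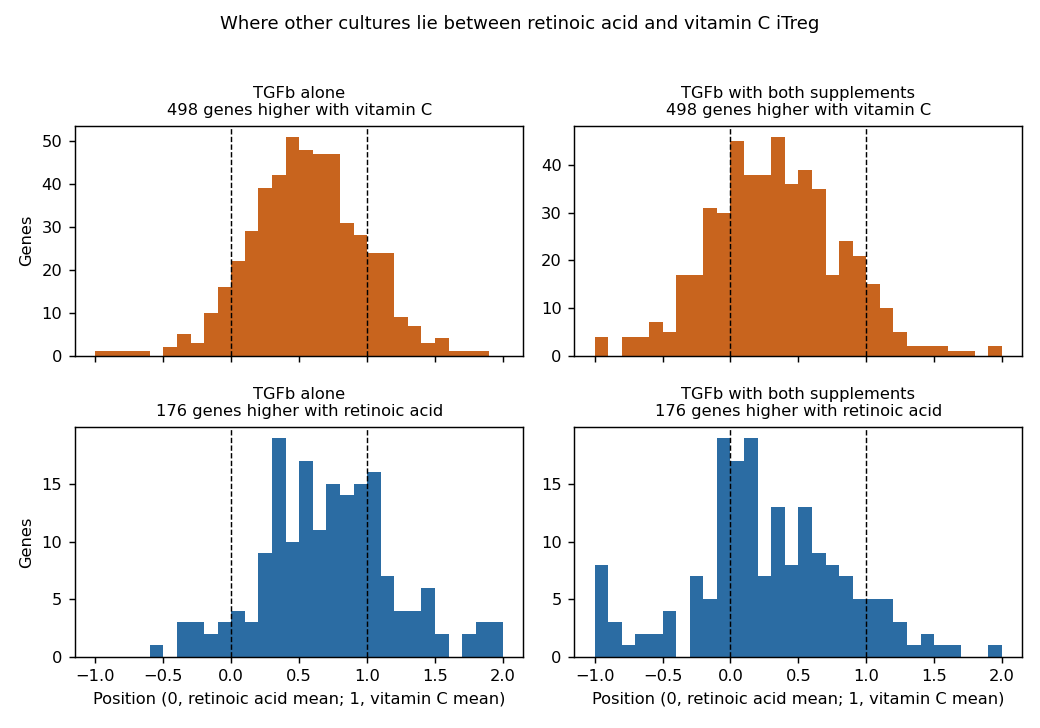
Number of genes by position on the scale from the retinoic acid mean (0) to the vitamin C mean (1), for genes higher with vitamin C and genes higher with retinoic acid by a log2 fold of 1 or more, in the TGF-beta alone and both-supplement cultures. Values beyond -1 or 2 are gathered in the edge bins. With both supplements most genes lie nearer to 0, and with TGF-beta alone the genes higher with retinoic acid lie mostly nearer to 1.

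Single genes show both placements of the combined culture. Ccr9 (651 and 692 CPM with both supplements) was above its retinoic acid libraries, Cyp26b1 (54.8 and 43.6 CPM) and Hic1 (26.8 and 22.4 CPM) overlapped theirs, and Gpr15 (0.666 and 0.332 CPM) and Itgb1 (336 and 304 CPM) were near theirs, away from vitamin C. Ccr6 (14.2 and 13.1 CPM), Car5b (145 and 147 CPM) and Plagl1 (18.6 and 14.4 CPM) were instead nearer to vitamin C. Of the 176 genes higher with retinoic acid, 44 (25%) were nearer to retinoic acid with TGF-beta alone and nearer to vitamin C with both supplements, and 102 (58%) were placed the other way round. Of the 44, 4 are given here, picked out after their values were seen. Kit had 29.4 and 28.6 CPM with TGF-beta alone and 12.4 and 10.7 CPM with both. Pde3b had 144 and 93.8 CPM and 66.3 and 46.4 CPM in the same order. The motor protein gene Myo6 (307 and 355 CPM, then 166 and 169.7 CPM) and Setbp1 (34.7 and 34.6 CPM, then 15.9 and 15.9 CPM) had the same pattern.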

How the data were processed

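The 4 iTreg libraries of this comparison and 8 further libraries were made with a stranded mRNA kit, per the labels' protocols. The deposited counts are raw read counts over the exons of each gene, and the authors' FPKM divide them by library total and exon length, which the files bear out within a relative difference of 5e-15. The submitters' processing notes name TopHat2 2.1.1 and the build mm9, with Trim Galore 0.4.2 and bcl2fastq 2.20.0.442 for the reads, Picard 2.5.0 and SAMtools 1.7 for the alignments and edgeR 3.26.6 in R 3.6.1. The counting tool, annotation and strand setting are not given in the sources used here, so overlapping and antisense genes are uncertain.

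Counts of all 12 libraries were filtered (filterByExpr), TMM-normalised and fitted with edgeR 4.0.16 (glmQLFit and glmQLFTest, 6 residual degrees of freedom) in R 4.3.3, with the contrast vitamin C minus retinoic acid and Benjamini-Hochberg adjustment over 11287 genes. The larger fit pools the spread of all 6 groups. CPM are over library totals of the filtered genes multiplied by the TMM factors. On simulated counts with 200 changed genes among 11287, this comparison recovered 50% of 1.5-fold, 90.9% of 2-fold and 96.9% of 4-fold changes. False calls were 8.38%, above the adjusted p threshold of 0.05. The simulation was a single draw with the fitted spread, and it changed far fewer genes than the 1821 that passed. These shares may therefore differ in the real data. Replicates differed by more than counting noise (chi-square per degree of freedom 5.62 and 11.0). The median standard error of a log2 difference was 0.13. No symbol is given for 92 genes.

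Alternatives were RLE size factors, DESeq2 1.42.0, no count filter, a required log2 fold of 1, limma 3.58.1 on log2(FPKM + 1) and log2(FPKM + 0.1), smaller fits, the replicate number as a block and leaving out each library. Leaving out each TGF-beta library was added after seeing the data. Members of the comparison and gene lists were chosen with earlier results of these data known. Genes named in the text are a followed set (such as Foxp3, Kit and the Tet genes), the 15 largest changes each way among called genes with a mean of at least 10 CPM, as many as 4 called genes a list by size of change, and the 10 smallest p-values each way. Others are said to be chosen after their values were seen or are described as members of a list. Some genes are not reported here. RefSeq gene identifiers matched 11255 tested genes.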

Additional observations from a re-analysis of the deposited data

How the results depend on the processing

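No called difference among the recomputed genes changed direction under any setting tried. The number of genes past the threshold was 1821, and a required log2 fold of 1 left 289, of which 212 were higher with vitamin C and 77 with retinoic acid. The number higher with retinoic acid was 519 by DESeq2 and 427 with only the 4 libraries compared, against 780. Leaving out 1 of the 4 libraries at a time gave 978 to 1742 genes in all, 657 to 985 higher with vitamin C and 321 to 757 higher with retinoic acid, with the lowest values without vitamin C replicate 1. The 4 fits that leave out a library assume that the lone remaining sample varies like the other groups. Of the differences for single genes and supplements that were recomputed, RLE size factors ended 7 calls, DESeq2 26 and the fit without vitamin C replicate 1 95.

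Genes higher with vitamin C lay nearer to it in the combined culture in 26.9% of cases at a log2 fold of 2, against 35.3% at 1. For genes higher with retinoic acid, TGF-beta alone lay nearer to vitamin C in 53.8% with no minimum fold and 74.6% at a log2 fold of 2, against 67.6%. With only the bases before the start, 66.7% of all promoter windows reached the CpG ratio, against 70.8%. For all genes that passed, with no minimum fold, the promoter shares fell to 48.9% toward vitamin C and 62.5% toward retinoic acid. They had been 52.2% and 66.8%, and were not set against intervals. Under these alternatives, the other shares that were checked moved less than their 95% intervals. These are binomial intervals that treat genes, or promoter windows, as independent, although a gene can have several overlapping windows.

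Replicate numbers are not stated to pair the samples. Deviations of same-numbered libraries correlated at 0.251 between vitamin C and retinoic acid iTreg, and between 0.251 and 0.51 over the 4 iTreg groups. For pairs that included Th0 or naive cells the values were lower, between 0.0207 and 0.109. The main fit has no block, so any pairing of the iTreg libraries is left out of it. With the replicate number as a block the count rose to 2429 in the fit of 12 libraries and to 2437 in the fit of 4. With the block, Il2ra passed in the fit of 12 (adjusted p = 0.0463), Tet2 in the fit of 4 (0.35, adjusted p = 0.0463) and Dnmt3a in both (0.0392 and 0.0416), all toward vitamin C.

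With 2 libraries a group, 1.5-fold changes were found in part only in the simulated counts, so a gene that did not pass is not shown to be equal. Genes of low counts carry wide errors, and the printed errors can be too small for them.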

Other observations

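Early response genes of the T cell receptor were higher with vitamin C in 9 of 27 tested members, and Egr3 was higher with retinoic acid (-1.13 ± 0.29) but not without vitamin C replicate 1, vitamin C replicate 2 or retinoic acid replicate 1. The median log2 difference was 0.57. The phosphatases Dusp4 (84.6 and 52.3 CPM with vitamin C, 14.3 and 12.9 CPM with retinoic acid) and Dusp1 (1.71 ± 0.19), which switch off MAP kinases, led the group. Of 15 tested AP-1 family factors 5 were higher with vitamin C, among them Maf, Jdp2 (2.11 ± 0.29) and Fosl2 (1.11 ± 0.23), and Jund was higher with retinoic acid (-0.41 ± 0.10), with a median of 0.83. No factor passed toward retinoic acid without vitamin C replicate 1, vitamin C replicate 2 or retinoic acid replicate 1. Among the E3 ligase genes tied to anergy, Nedd4 was higher with retinoic acid (85.5 and 74.5 against 35.7 and 33.5 CPM, -1.21 ± 0.10, adjusted p = 8.27e-07 by edgeR).

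Of 7 tested CD8 T cell markers, 3 were higher with vitamin C, 1 with retinoic acid and 3 did not pass. Cd8b1 had 21.7 and 25.7 CPM with vitamin C and 8.06 and 7.8 CPM with retinoic acid (1.58 ± 0.14), and Runx3, the CD8 lineage factor, differed by 0.58 ± 0.08, while Cd8a did not pass (-1.07 ± 0.37, adjusted p = 0.0642 by edgeR). Cd4 was also higher with vitamin C (953 and 969 against 733 and 725 CPM, 0.40 ± 0.07, adjusted p = 0.000519 by edgeR). The 8 CD8 T cell markers summed to 212.4 and 214.2 CPM with vitamin C and to 145.2 and 127.1 CPM with retinoic acid, and their part in these differences was not tested. Glycolysis genes passed in 5 of 25 members toward vitamin C and in 3 toward retinoic acid, and each of these counts moved by over 1.5 times with single libraries (2 to 8 and 0 to 2). Adgre1, known as a macrophage marker, had 14.2 and 11 CPM with vitamin C and 2.53 and 2.27 CPM with retinoic acid and was highest with both supplements (18.6 and 21.4 CPM).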
